A study of Macaca mulatta with 252 samples.

Results

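Layer 3 of 2 prefrontal areas was compared with layer 3 of 2 visual areas of the adult rhesus macaque. The prefrontal areas were the orbitofrontal cortex (OFC) and the dorsolateral prefrontal cortex (DLPFC), and the visual areas were the secondary visual cortex (V2, area 18) and the middle temporal area (MT). The 16 arrays of that layer and those areas were taken, 4 per area, out of 252 arrays in the series. Each array held RNA of 1 piece of tissue cut out by laser capture, so it mixes neurons, glia and vessels of that layer, and fewer cells of a type and less RNA per cell cannot be told apart.

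The labels call the animals adult and name no treatment, genotype or exact age. The prefrontal samples came from male 01D150, male CR5C1, female 98C096 and female 99C018, each with both areas. The visual samples came from male 018G, male CR5C1 and female 99C018 with both areas, from female 98C096 with V2 alone and from female 99C039 with MT alone. Values were averaged per animal and side, which gave 4 prefrontal and 5 visual animal means, with 3 animals on both sides. All levels are log2 intensities of 1 probe set per gene, and all changes are prefrontal minus visual on the log2 scale, with the standard error of the fitted change after ±.

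Layer 3 is the main source of the connections that pyramidal neurons send to other areas of the cortex. In prefrontal cortex these neurons are large and carry many dendritic spines, while visual areas are densely supplied with fast-spiking inhibitory interneurons. RBP4 encodes the retinol carrier and is known from association cortex of monkeys. MET encodes the receptor of hepatocyte growth factor, which shapes dendrites and synapses, and PVALB encodes parvalbumin, the calcium buffer of fast-spiking interneurons.

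Layer markers were read first. The upper layer transcription factor CUX2 was at 9.33 to 10.05 on all 16 arrays, while FEZF2, a transcription factor of layer 5, was at 4.34 to 5.82 except on the OFC array of male 01D150 (7.41). Other layer 5 markers read higher, with prefrontal and visual means of 7.95 and 7.78 for ETV1 and 7.94 and 6.72 for SULF2. TSHZ2 had 7.88 and 6.62, and HS3ST2 6.20 and 6.44. Summed layer 4 markers were at 29.5 to 30.7 in the prefrontal and 28.0 to 29.4 in the visual animals, without overlap. The members of that sum disagreed, with changes of 1.24 (TSHZ2, also on this list), 0.63 (NTNG1), -0.01 (SCNN1A) and -0.64 (RORB). The sums overlapped for layer 5 (37.6 to 40.7 against 35.1 to 37.8) and layer 6 (37.2 to 39.1 against 33.5 to 38.7). The share of other layers in the pieces was not tested. Array medians lay between 4.74 and 4.95. The V2 array of female 98C096 stood apart: it correlated at 0.957 with the averaged remaining arrays of its area, against 0.973 to 0.991 for the remaining 15. The added poly-A control RNAs read 9.25 to 9.40 on the V2 arrays, 8.59 to 9.04 on the MT arrays and 8.06 to 9.02 on the prefrontal arrays. The labels name 3 amplification batches without saying which array lay in which, so batch was not tested.

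More genes were higher than lower in prefrontal layer 3. Of 10277 genes tested, 80 were higher in prefrontal layer 3 (0.778%) and 22 were lower (0.214%), where called means a limma adjusted p under 0.05 and at least a 2-fold change. A change of 4-fold or more was reached by 16 of the higher and 2 of the lower genes. The animal means of the sides did not overlap for 101 of the 102 called genes, against 694 of all genes tested (6.75%), and 101 had the same sign in all 3 animals with both sides. GPAT3, an enzyme of triglyceride synthesis with a change of -1.59, was the exception in each case and is named here after its values were seen. The 102 genes were called on these same animal means, so both counts are descriptions and not further evidence. The share of all genes with 1 sign in the 3 animals is not given here. The adjusted p alone passed 172 genes (1.67%), 126 higher (1.23%) and 46 lower (0.448%).

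**Figure D1:**
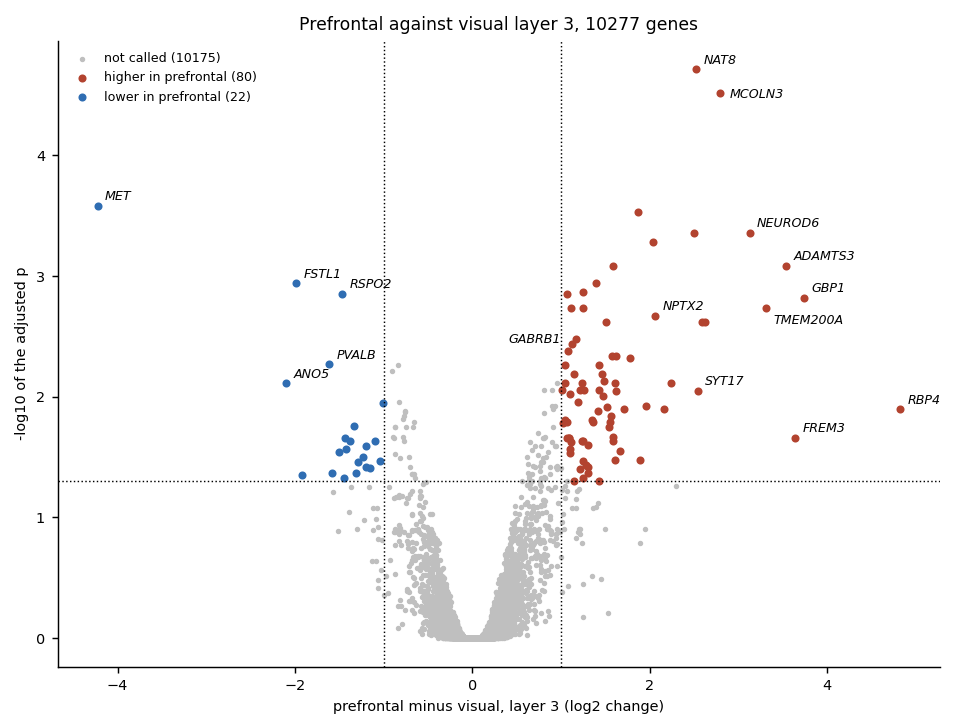
Each point is 1 of 10277 genes, with the prefrontal minus visual log2 change in layer 3 on the x axis and minus log10 of the limma adjusted p on the y axis; dotted lines mark a change of 1 and an adjusted p of 0.05. The 80 higher genes (red) reach a change of 4.82 at RBP4, and the 22 lower genes (blue) reach -4.22 at MET.

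The number of calls rested on few animals. Leaving out female 99C018 left 27 genes, male 01D150 56, male CR5C1 57 and male 018G 65. Without female 98C096, 142 were called, 80 higher and 62 lower, and without the V2 array of that animal alone, 83 higher and 45 lower. With animal as a fixed block, which uses the 3 shared animals alone, 10 genes were called, all of them among the 102. With the level of the poly-A controls added to the model 6 were called, 5 of them among the 102. That level was itself higher on every V2 array than on every prefrontal array, so the covariate and the side are partly confounded in that fit. All 35 called genes named below kept their direction in both fits. Under the fixed block 9 of them were still called (MET, GBP1, ADAMTS3, NEUROD6, MCOLN3, SSTR1, SYT17, FSTL1 and NAT8), and the other 26 had limma adjusted p values of 0.051 to 0.38. Under the poly-A covariate MET, ADAMTS3, MCOLN3 and NAT8 were called, and the other 31 had limma adjusted p values of 0.060 to 0.82.

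RBP4 showed the largest rise. In OFC it was at 10.01 in male 01D150, 10.19 in female 98C096, 10.64 in female 99C018 and 10.62 in male CR5C1, and in DLPFC at 10.23, 9.88, 10.46 and 10.87 in the same order. In V2 it was at 3.76 in male 018G, 3.36 in female 98C096, 7.22 in female 99C018 and 6.75 in male CR5C1, and in MT at 4.57 in male 018G, 7.72 in female 99C018, 6.06 in female 99C039 and 7.02 in male CR5C1. The prefrontal arrays lay within 1 unit of each other, the visual arrays spread over more than 4, and the sides did not overlap. The change was 4.82 ± 0.81, or 28.2-fold (limma adjusted p = 0.0127). It was 6.68 within female 98C096, 3.08 within female 99C018 and 3.86 within male CR5C1. The call was lost without female 99C018 (5.17, limma adjusted p = 0.064), without male CR5C1 (4.99, 0.053), with the fixed block (4.54, 0.082) and with the poly-A covariate (3.60, 0.46).

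MET had the largest fall. It was at 4.53 to 6.39 on the 4 OFC arrays and at 3.75 to 5.69 on the 4 DLPFC arrays, with male CR5C1 the lowest in each. On the V2 arrays it was at 8.77 to 9.66 and on the MT arrays at 9.27 to 9.76. No array of one side reached the other, and here the prefrontal side had the wider spread (SD 0.76 over 4 animals, against 0.30 over 5). MET was 18.7-fold lower in prefrontal layer 3 (-4.22 ± 0.35, limma adjusted p = 0.000261), and it was called in all 21 alternatives that tested it. Of its 5 probe sets, 1 lay above the filter on low values, and the values are those of that probe set.

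PVALB was lower in prefrontal layer 3 by a smaller step. It was at 7.35 to 8.43 in OFC, 8.09 to 8.99 in DLPFC, 9.30 to 10.24 in V2 and 9.67 to 10.24 in MT. The highest prefrontal array thus lay below the lowest visual array. The change was -1.61 ± 0.23, or 3.06-fold (limma adjusted p = 0.00535), with -0.66 within female 98C096, -1.58 within female 99C018 and -2.04 within male CR5C1. Without female 99C018 the limma adjusted p was 0.072, and with the fixed block it was 0.24 at a change of -1.43.

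**Figure D2:**
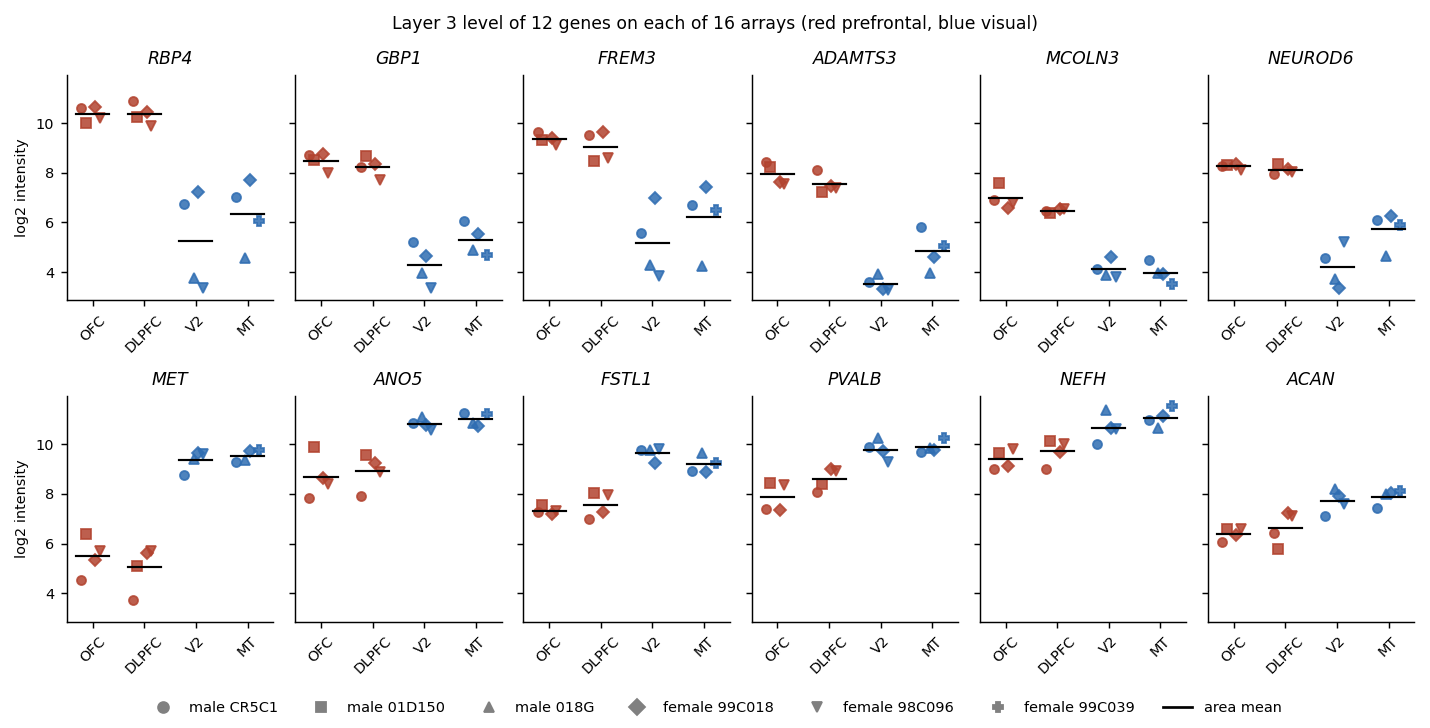
Log2 intensity (y axis) of 12 genes on each layer 3 array of OFC, DLPFC, V2 and MT (x axis); the marker shape gives the animal and the black line the area mean of 4 arrays. RBP4 spreads from 3.36 to 7.72 over the visual arrays, while MET spreads from 3.75 to 6.39 over the prefrontal arrays.

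Other genes linked to association cortex were higher together with RBP4. Of the 8 tested genes on that list, 6 rose, none fell and 2 were not called, where 0.778% of all genes tested were higher. The median change of the list was 2.21, against 0.0024 over all genes. Several of these genes were put on the list because earlier results of these data had named them, so the count is not independent evidence. GBP1, an interferon-induced GTPase, rose 13.4-fold (3.74 ± 0.43, limma adjusted p = 0.00151), from 3.35 to 6.05 on the visual arrays to 7.69 to 8.75 on the prefrontal arrays. Of the 6 GBP1 probe sets, 1 lay above the filter on low values and gave these values. The others had differences of group means of -0.21 to 0.14. ADAMTS3, a secreted metalloprotease that processes procollagen, rose 11.6-fold (3.53 ± 0.36), and it was called in all 21 alternatives that tested it. SYT17, a synaptotagmin, rose by 2.54 ± 0.40, PNMA5, a member of the paraneoplastic antigen family known from association cortex, by 1.34 ± 0.23, and RASGRP1, an activator of Ras, by 1.89 ± 0.39. CRYM, which binds thyroid hormone, had a change of 0.98 and SLIT1, a guidance ligand, one of 0.47, and neither was called. SYT17 was not called without female 99C018 (limma adjusted p = 0.093), PNMA5 not without female 99C018 or male 018G (0.14 and 0.054), and RASGRP1 in only 1 of the 6 sets that left an animal out (0.065 to 0.24 in the other 5, without 018G, 01D150, 99C018, 99C039 or CR5C1).

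The largest rises outside that list were those of FREM3, TMEM200A, NEUROD6, MCOLN3, SSTR1 and PPEF1. FREM3, a matrix protein of upper layer neurons, rose 12.4-fold (3.64 ± 0.68, limma adjusted p = 0.0218). On the prefrontal arrays it was at 8.47 to 9.65. On the visual arrays it was at 3.86 in the V2 piece of female 98C096 and at 4.25 and 4.27 in male 018G, but at 6.99 and 7.45 in female 99C018. The sides did not overlap, and the visual animals fell far apart. The FREM3 call was lost without 018G, 01D150, 99C018 or CR5C1 (limma adjusted p = 0.060 to 0.13). TMEM200A, a membrane protein, rose by 3.31 ± 0.40 from 4.90 to 8.19, MCOLN3, a cation channel of endosomes and lysosomes, by 2.80 ± 0.18 from 3.97 to 6.73, and SSTR1, a receptor of the inhibitory peptide somatostatin, by 2.62 ± 0.33 from 4.02 to 6.63, all given as means over animals. SSTR1 alone of these 3 lost its call in a set without 1 animal (99C018, limma adjusted p = 0.064). Of 3 MCOLN3 and 2 SSTR1 probe sets, 1 each lay above the filter. Their probe sets below it had differences of group means of -0.03 to 0.07. The visual means of GBP1, ADAMTS3, MCOLN3, SSTR1, PPEF1 and SCN7A lay below 4.80, the median of all probe sets, and whether they differ from background was not tested.

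The helix-loop-helix factor NEUROD6, found in excitatory neurons, was the called gene of 3 tested on the excitatory neuron list. It was at 7.96 to 8.36 on all 8 prefrontal arrays and at 3.36 to 6.25 on the visual arrays, a rise of 3.13 ± 0.29 or 8.73-fold (limma adjusted p = 0.000439). The other excitatory markers were not called: SLC17A7, the vesicular glutamate transporter, had a change of 0.48 and TBR1, a transcription factor, one of 0.01. PPEF1, a calcium-regulated phosphatase, rose by 2.58 ± 0.32. NPTX2, a secreted pentraxin that gathers AMPA receptors at synapses, rose 4.17-fold (2.06 ± 0.25) and was the called gene of 13 tested on the activity-regulated list. On that list BDNF, a neurotrophin, had a change of 1.17 (limma adjusted p = 0.15) and the immediate early gene FOS one of -0.05, and the list median was 0.16.

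Among the 22 lower genes were FSTL1, LTB, ANO5, RSPO2, RFTN2 and SLC25A17. FSTL1, a secreted follistatin-like protein first described in monkey visual cortex as OCC1, had animal means of 7.13 to 7.78 in prefrontal and 9.06 to 9.80 in visual layer 3, a change of -1.99 ± 0.22 or 3.96-fold (limma adjusted p = 0.00115). LTB, lymphotoxin beta, was lower by 2.84-fold (-1.51 ± 0.30). These were the called members of 6 tested genes on the list of OCC1-related visual cortex genes, whose median was -0.24. Over all genes tested, 0.214% were lower. Members of the list were chosen with earlier results of these data known, so the count is not independent evidence. SPOCK1, a proteoglycan, had a change of -0.33 and HTR2A, a serotonin receptor, one of 0.15. ANO5, an anoctamin, fell by 2.10 and RSPO2, a secreted enhancer of Wnt signalling, fell by 1.47. RFTN2, a raft protein, had a change of -1.92 ± 0.42, and SLC25A17, a carrier of the peroxisome, one of -1.42 ± 0.28; a second SLC25A17 probe set above the filter had a difference of group means of -0.04, and the mean of its probe sets was not called (-0.51). The FSTL1 and RSPO2 calls held without each animal. The ANO5 call was lost without 99C018 (limma adjusted p = 0.088), that of RFTN2 without 018G, 01D150, 99C018 or 99C039 (0.12 to 0.34), and those of LTB and SLC25A17 without any animal but 98C096 (0.060 to 0.16 and 0.059 to 0.24).

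The perineuronal net is the matrix that wraps fast-spiking interneurons. Of 6 tested net genes, 2 fell, 4 were not called and the median was -0.60. Over all genes tested, 0.214% were lower. ACAN, the core proteoglycan aggrecan, was at 5.79 to 7.24 on the prefrontal and 7.11 to 8.20 on the visual arrays; single arrays overlapped and animal means did not. ACAN fell by 1.33 (± 0.24, limma adjusted p = 0.0174) and HAPLN4, a link protein of the net, fell by 1.31 (± 0.28, limma adjusted p = 0.0426). The remaining net genes had changes of -0.65 (HAPLN2), -0.55 (BCAN), -0.53 (HAPLN1) and 0.06 (VCAN). The ACAN call was lost without 018G, 01D150, 99C018 or 99C039 (0.052 to 0.11) and the HAPLN4 call without any animal but 98C096 (0.053 to 0.35). The other ACAN probe sets above the filter had differences of group means of -0.92 and -0.20.

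The channels that give these interneurons their fast firing were not called. Of 8 tested, the median was -0.46, with KCNA1 at -0.83 and KCNA2 at -0.68, both potassium channels. PVALB was the called gene of 6 on the inhibitory neuron list, and the others had changes of -0.44 (GAD2), -0.26 (VIP), 0.07 (LHX6), 0.08 (GAD1) and 0.14 (ADARB2), none called. NEFH, the heavy neurofilament of large axons, fell 2.61-fold (-1.39 ± 0.26, limma adjusted p = 0.0232), and SPP1, osteopontin, had a change of -1.58 that was not called (0.061). The NEFH call was lost without 018G, 99C018, 99C039 or CR5C1 (0.051 to 0.23).

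Myelin markers had lower summed levels on the prefrontal side, with none called. The summed level of 5 oligodendrocyte and myelin markers was 39.7 to 45.1 in the prefrontal and 46.5 to 48.6 in the visual animals, with no overlap. Their median change was -1.12, with ANLN at -1.40, UGT8, an enzyme of myelin lipids, at -1.30 and MBP, myelin basic protein, at -1.12 (limma adjusted p = 0.084 to 0.12), while CNP was at -0.05. BCAS1, a protein of young myelinating oligodendrocytes, was called (-1.44 ± 0.32, limma adjusted p = 0.0468), though not without any animal but 98C096 (0.083 to 0.34). The part of myelin content in the changes of PVALB, NEFH, ACAN and the other lower genes was not tested.

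Other cell types were read from their markers in the same way. The summed level of 8 microglial markers was higher in the prefrontal animals (51.8 to 52.9 against 47.7 to 50.9), led by CD53 with a change of 1.39 and P2RY12, a purine receptor, with 0.76, and 0 of 7 tested were called. The other 5 tested had changes of -0.09 to 0.20, and the list median was 0.14. For astrocytes (55.0 to 56.3 against 53.5 to 56.3), endothelium and pericytes (39.1 to 40.5 against 39.3 to 41.7) and blood (13.3 to 13.7 against 13.1 to 13.8) the summed ranges overlapped, and no member was called. The upper layer markers summed higher in the prefrontal animals (90.9 to 92.6 against 82.3 to 88.9), with FREM3 (3.64) the called gene of 10; their median change was 0.18, and CUX1 (-0.45), BHLHE22 (-0.49) and LAMP5 (-0.61) had negative changes. Their part in the higher genes was not tested.

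**Figure D3:**
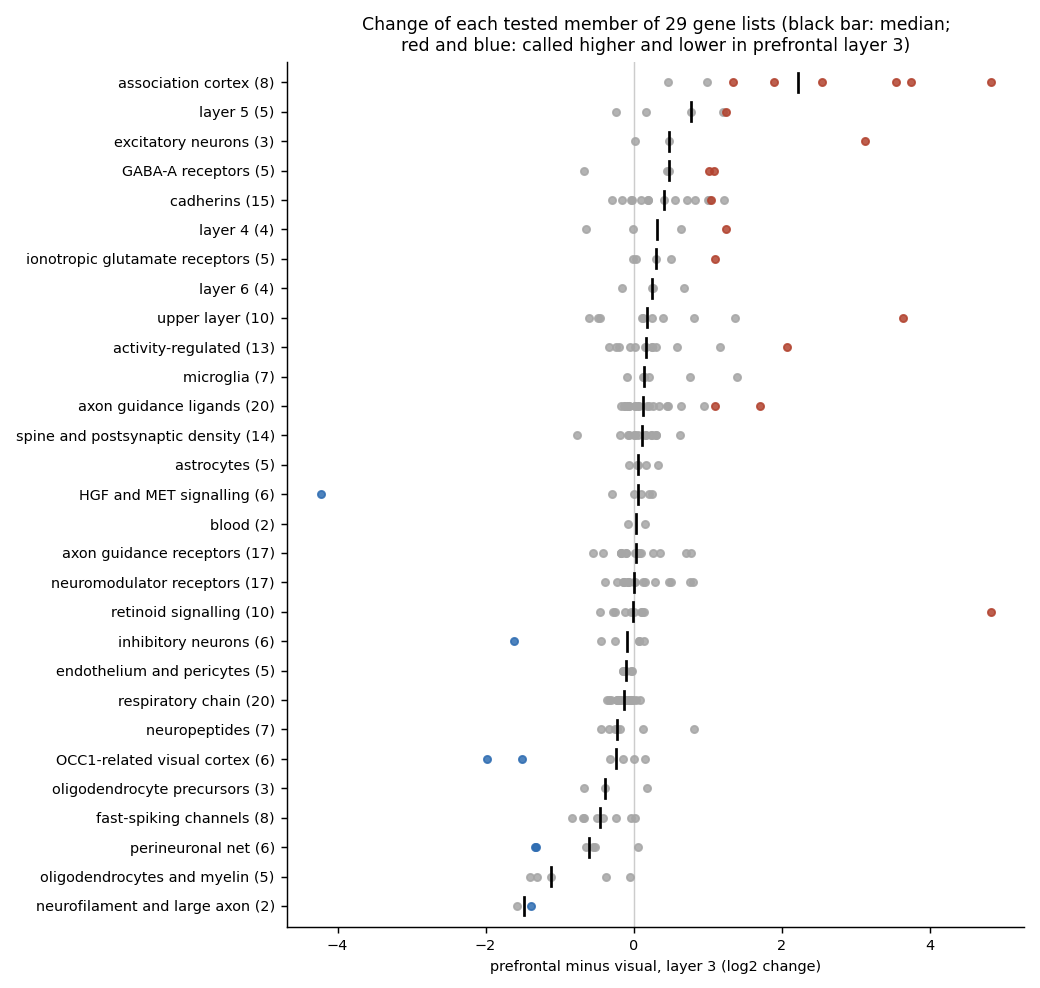
Each point is the prefrontal minus visual log2 change (x axis) of a tested gene in 1 of 29 lists (rows, number of tested genes in brackets), with the list median as a black bar; red and blue points were called higher and lower. The association cortex list has its median at 2.21 and the myelin list at -1.12 with no called member.

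Receptor subunits shifted in a few members, where 0.778% of all genes tested were higher. Of 5 tested GABA-A receptor genes, the main inhibitory receptors, 2 rose: GABRB1 by 2.11-fold (limma adjusted p = 0.00415) and GABRA3 by 2.02-fold (0.00881). GABRB1 was at 10.81 to 11.29 on the prefrontal and 9.72 to 10.29 on the visual arrays. A second GABRB1 probe set above the filter had a difference of group means of 0.64, and the mean of its probe sets was not called (0.91). GABRE, the epsilon subunit, had a change of -0.68. Of 5 ionotropic glutamate receptor genes, GRIA1, an AMPA receptor subunit, rose by 1.10 ± 0.22 (limma adjusted p = 0.027), GRIA4 had a change of 0.50 and GRIK1 one of -0.01; another GRIA1 probe set had a difference of group means of 0.53. These 3 changes lie near the 2-fold limit of a call. GRIA1 lost the call without any 1 of the 6 animals (0.97 to 1.17, limma adjusted p = 0.00077 to 0.18), GABRB1 without 98C096 or 99C018 (1.00 and 1.13), and GABRA3 without 018G, 98C096, 99C018 or 99C039 (0.89 to 1.11).

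Axon guidance genes were read as ligands and receptors, where 0.778% of all genes tested were higher. Of 20 ligands, 2 rose: EFNB3, an ephrin, by 1.70 ± 0.29 (limma adjusted p = 0.0127) and SEMA3C, a secreted semaphorin, by 1.09 ± 0.20 (0.0218). A second probe set of EFNB3 above the filter had a change of -0.06, so that result belongs to 1 probe set. A second SEMA3C probe set above the filter had a difference of group means of 0.55. The mean of all probe sets of the gene was not called for EFNB3 (0.83) or SEMA3C (0.82). EFNB2 had a change of 0.95, short of 2-fold. Of 17 receptors none was called, with PLXNA1 at 0.78 and ROBO1 at 0.71 the highest and a median of 0.03. Of 15 cadherins, 1 rose, CDH11 (1.04 ± 0.15, limma adjusted p = 0.00541), with CDH9 at 1.21 and CDH8 at 1.00 not called and a median of 0.41. The other CDH11 probe sets above the filter had differences of group means of 0.60 and 1.14. The mean of its probe sets was not called (0.91). The EFNB3 call was lost without 01D150, 99C018 or CR5C1 (limma adjusted p = 0.066 to 0.091), that of SEMA3C without any animal but 99C039 (0.86 to 1.21), and that of CDH11 without 98C096, 99C018 or 99C039 (0.93 to 1.05).

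RBP4 and MET were each the called gene of their pathway list. Of 10 tested genes of retinoid signalling, the other 9 were not called and the list median was -0.02. STRA6, the membrane receptor that takes retinol from the carrier, had a change of 0.10, the retinoic acid receptors RARA, RARB and RARG had 0.11, 0.14 and -0.04, and ALDH1A2, which makes retinoic acid, had -0.25. Of 6 tested genes around MET, the other 5 were not called and the median was 0.05. GRB2, an adaptor that binds activated MET, had a change of 0.21, SPINT2, an inhibitor of the proteases that activate the ligand, 0.24, and MST1R, the related receptor, 0.01. The ligand HGF itself was below the filter on low values.

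TSHZ2, a zinc finger transcription factor on the lists of layers 4 and 5, was the called gene of 4 and of 5 tested there (1.24 ± 0.25, limma adjusted p = 0.0341). Its call was lost without 018G, 01D150, 99C018 or CR5C1 (0.085 to 0.23). The mean of all TSHZ2 probe sets was not called either (0.56, limma adjusted p = 0.18). RORB, a layer 4 marker, had a change of -0.64 and FEZF2 one of 0.77.

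Several groups had no called member. None of 20 respiratory chain genes was called, and their changes lay between -0.36 and 0.09. The same held for 17 receptors of neuromodulators, where OPRL1, the nociceptin receptor, had the largest change (0.80), for 7 neuropeptides, where CARTPT had 0.81, and for 14 genes of spines and the postsynaptic density, where CAMK2G, a calmodulin-dependent kinase, had -0.77. In all, 13 of 29 lists had no called member.

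Each prefrontal area was then set against each visual area. All 102 genes changed in the same direction in each of the 4 area pairs; the genes were chosen on these same arrays, which the pairs also share, so this is a description. Of the 102, 96 were called between OFC and V2, 89 between OFC and MT, 77 between DLPFC and V2, and 62 between DLPFC and MT; 52 were called in all 4. The shares of all 10277 genes called in those pairs were 1.5%, 1.34%, 1.15% and 0.681%. RBP4 was higher by 5.09 in OFC and 5.08 in DLPFC against V2, and by 4.02 in each against MT. NEUROD6 was higher by 4.05 and 3.91 against V2 and by 2.54 and 2.40 against MT, while MET had changes of -3.88 to -4.50 over the 4 pairs.

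Within each side no gene was called. Between OFC and DLPFC, 0 of 10270 genes were called by limma, with 351 at an unadjusted p under 0.05. RBP4 differed by 0.00 (95% interval -0.36 to 0.37), whereas PVALB had an OFC minus DLPFC difference of -0.72 (-1.31 to -0.14, limma adjusted p = 0.91) and SSTR1 one of 0.84 (0.38 to 1.29, 0.91). Between V2 and MT, 0 of 10253 genes were called by limma, with 776 at an unadjusted p under 0.05. NEUROD6 had a V2 minus MT difference of -1.55 (-2.39 to -0.71, limma adjusted p = 0.63), GBP1 one of -0.98 (-1.71 to -0.24) and RBP4 one of -0.98 (-2.61 to 0.65). These intervals are for single genes, and a missed threshold does not show that the areas are alike.

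The side difference was next asked of the other layers. In the same 4 areas and the same kind of fit, 70 genes were called in layer 2 (0.685%), 102 in layer 5 (0.993%) and 56 in layer 6 (0.546%). Of the 102 genes of layer 3, 22 were also called in layer 2 in the same direction, 46 in layer 5 and 14 in layer 6. These shared genes made up 21.6%, 45.1% and 13.7% of the layer 3 genes, and 31.4%, 45.1% and 25.0% of the genes called in those layers. GBP1, SYT17, PVALB, FAM110C and GPAT3 were called in layers 2, 3, 5 and 6; FAM110C and GPAT3 are outside the naming rule. A further 39 genes were called in layer 3 and in no other of these layers, which by itself does not show a difference between layers. The PVALB change was -1.64 in layer 2 and -2.26 in layer 6, and in layer 5 it lay at the 2-fold limit.

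A test of the difference itself, layer 3 minus the mean of layers 2, 5 and 6, called 11 of 10255 genes, 8 higher (0.078%) and 3 lower (0.0293%). TMEM200A (3.01 ± 0.44), MCOLN3 (2.41 ± 0.33), ADAMTS3 (2.33 ± 0.23), SSTR1 (1.70 ± 0.23) and PPEF1 (1.63 ± 0.21) had a larger prefrontal excess in layer 3, with limma adjusted p values of 0.0025 to 0.019. So did SCN7A, a sodium-sensing channel (1.29), HRH1, a histamine receptor (1.25), and NAT8, an acetyltransferase (1.17), which lie outside the naming rule and are named after their values were seen. MET (-2.77 ± 0.32, limma adjusted p = 0.0075) had a larger deficit there. MCOLN3 and SSTR1 lay below the filter on low values in layers 5 and 6, and TMEM200A and MET in layer 6, where such levels leave little room for a difference. Layer 4 was not in the reference, and prefrontal layer 4 came from DLPFC alone. The layer 4 prefrontal and visual means were 7.58 and 5.12 for PPEF1, 6.88 and 4.34 for SCN7A and 8.18 and 6.81 for HRH1. They were 9.64 and 7.65 for NAT8, 5.43 and 3.42 for SSTR1 and 6.60 and 4.83 for TMEM200A. ADAMTS3 had 7.21 and 7.19 there, MCOLN3 3.44 and 3.35, and MET 5.42 and 8.12. Whether the layer 3 difference exceeds that of layer 4 was not tested. Against layer 2 alone, TMEM200A (2.75), SSTR1 (1.67), PPEF1 (1.93), ADAMTS3 (1.78) and MET (-2.03) were called and MCOLN3 was not (2.10, limma adjusted p = 0.078). BHLHE22, a transcription factor of upper layer neurons (-1.65 ± 0.21), and RERG, a Ras-related protein (-1.40 ± 0.22), were not called in layer 3 itself (-0.49 and -0.83); BHLHE22 was higher in prefrontal layer 5 (1.89) and layer 6 (1.17), and RERG in layer 6 (1.39). The PVALB value in this test was -0.09 and it was not called. Without male CR5C1 none of the 11 was called (limma adjusted p = 0.11 to 0.42, 205 genes at an unadjusted p under 0.05), without 01D150 2 of them were, without 99C018 4 and without 99C039 3. Without 98C096 all 11 were called among 42 genes, and with animal as a fixed block 0 genes were called, with 207 genes at an unadjusted p under 0.05.

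The layer profiles show where the sides part. MCOLN3 was high in layer 2 of both sides, at 8.13 to 8.29 in the prefrontal and 6.33 to 8.52 in the visual animals. In layer 3 it was at 6.57 to 6.98 in the prefrontal and 3.52 to 4.31 in the visual animals, and in layers 5 and 6 it was too low on both sides to be tested (layer 5 means of 4.50 and 4.49). TMEM200A had visual means of 7.27, 4.90, 4.83 and 7.32 in layers 2, 3, 4 and 5. Its prefrontal means there were 7.89, 8.19, 6.60 (DLPFC alone) and 7.81.

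RBP4 had means of 10.68 and 9.79 in prefrontal and visual layer 2, a change of 0.89 ± 0.23 that fell short of 2-fold. In layer 5 it rose by 4.29 ± 0.43, and in layer 6 its change was 2.18 ± 0.59 (limma adjusted p = 0.099 in the latter). Its layer 3 difference exceeded that of layer 2 by 3.92 ± 0.60 (limma adjusted p = 0.018). The excess over layers 2, 5 and 6 together was not called (2.39, limma adjusted p = 0.13). Layer 4, with RBP4 means of 8.84 in DLPFC and 3.33 in the visual animals, was in neither test. Against layer 2 alone, 29 genes were called, 27 higher (0.263%) and 2 lower (0.0195%), and 19 of them were among the 102. NPTX2 was among them (2.28 ± 0.32), with prefrontal and visual means of 9.78 and 9.97 in layer 2 and of 8.67 and 6.58 in layer 3. BDNF (2.21 ± 0.39) and CARTPT (2.08 ± 0.29), a neuropeptide precursor, were called in that test without being called in layer 3, and are named after their values were seen.

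MET showed the reverse profile. It peaked in layer 3 of the visual areas (9.50, with 8.25 in layer 2, 6.51 in layer 5 and 5.00 in layer 6) and had no such peak in prefrontal cortex (6.07, 5.26, 5.41 and 3.86 in layers 2, 3, 5 and 6). The FREM3 means were 8.41 and 9.22 in prefrontal layers 2 and 3 and 6.60 and 5.59 in visual layers 2 and 3, while its means in layers 5 and 6 were 3.91 to 4.07 on either side. NEUROD6 had means of 9.20 and 8.50 in prefrontal and visual layer 5. Its side difference was 2.04 in layer 2, 3.13 in layer 3, 0.70 in layer 5 and 0.37 in layer 6. The layer 3 difference was not called against layers 2, 5 and 6 together (2.11, limma adjusted p = 0.073). Against layer 2 alone it was not called either (1.09, limma adjusted p = 0.72).

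**Figure D4:**
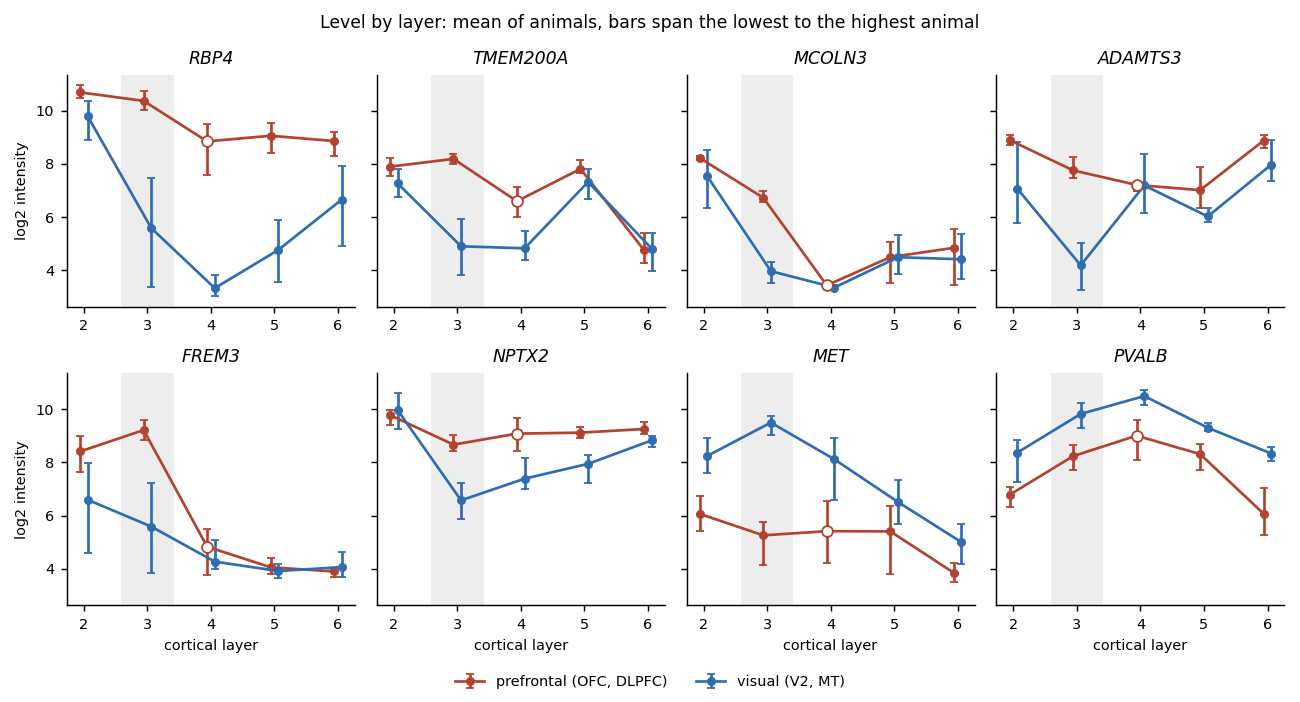
Mean log2 intensity (y axis) by cortical layer (x axis) over 4 prefrontal and 5 visual animals, with bars from the lowest to the highest animal; the open symbol marks prefrontal layer 4, which is from DLPFC alone, and layer 3 is shaded. In layer 3 the sides part at 6.73 and 3.97 for MCOLN3 and at 5.26 and 9.50 for MET.

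The 4 areas were placed among all 10 cortical areas with layer 3 arrays, as medians and ranges of 4 arrays and without a test. RBP4 was highest in anterior cingulate cortex (ACG, 10.90), followed by OFC (10.41), DLPFC (10.35), temporal area TE (10.04) and auditory cortex (A1, 9.77), whose ranges overlapped with their neighbours in that order. MT (6.54) and V2 (5.26) lay below motor (M1, 8.52) and somatosensory cortex (S1, 7.82), and the primary visual cortex (V1) was lowest (3.63, range 3.04 to 4.17). The RBP4 ranges of M1 (4.18 to 9.58) and S1 (6.42 to 9.44) overlapped those of MT (4.57 to 7.72) and V2 (3.36 to 7.22). MET did not follow the same order. Its medians were high in TE (9.85), MT (9.56), V2 (9.51) and A1 (9.18), with S1 at 8.18 and V1 at 7.62. They were low in OFC (5.50), DLPFC (5.37), M1 (4.68) and ACG (4.29). Single arrays spread widely in A1 (5.63 to 9.75), S1 (4.20 to 8.95) and M1 (4.08 to 8.58). The TE median thus lay near the prefrontal medians for RBP4 and near the visual medians for MET. PVALB was highest in V1 (10.55) and M1 (9.97) and lowest in OFC (7.86) and ACG (7.21), and ACAN was highest in M1 (9.10).

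**Figure D5:**
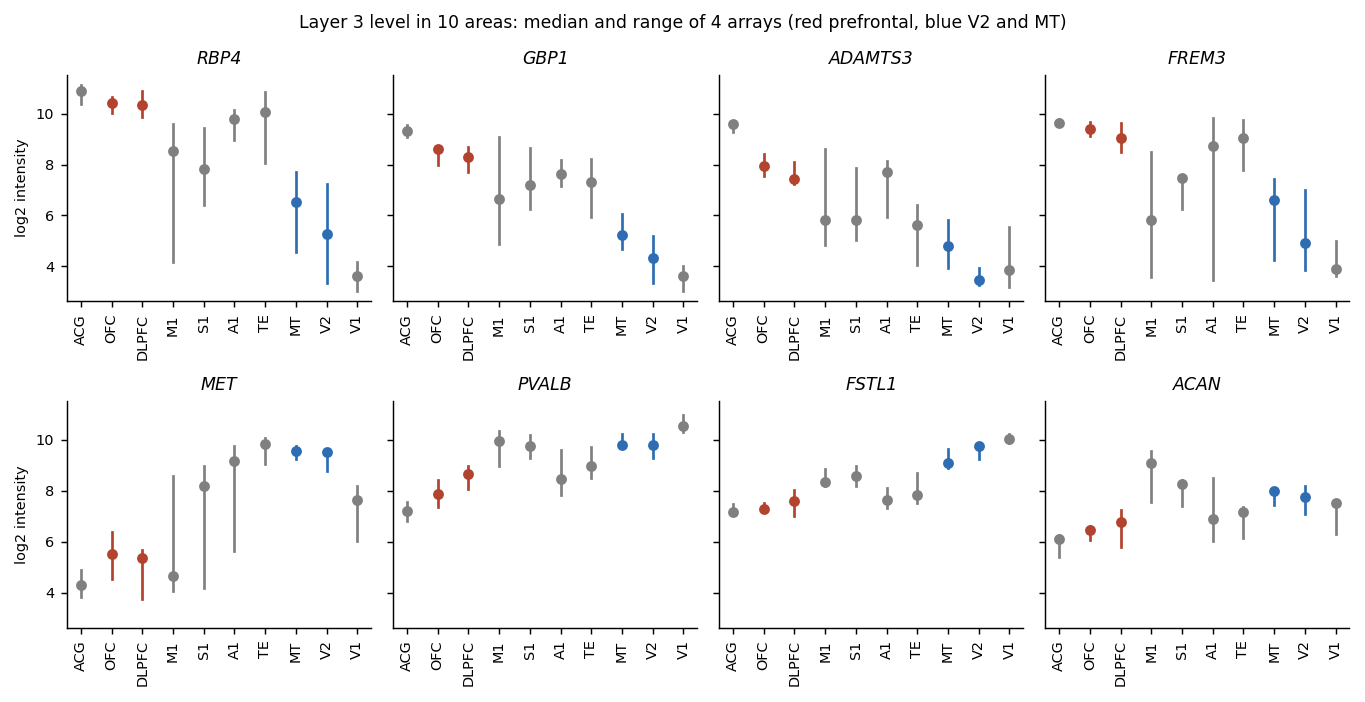
Log2 intensity (y axis) of 8 genes in layer 3 of 10 cortical areas (x axis), as the median (point) and range (line) of 4 arrays; OFC and DLPFC are red, MT and V2 blue. RBP4 runs from 10.90 in ACG to 3.63 in V1, while MET is near 9.5 in both MT (9.56) and V2 (9.51) and falls to 7.62 in V1.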

How the data were processed

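Per the file headers, the authors deposited log10 intensities, made by RMA in Matlab separately for each batch of amplified RNA, with each probe set then scaled on controls of whole brain RNA. They were multiplied by the log2 of 10; the plan had assumed log2. Of 52865 probe sets, 24969 had 1 symbol in the platform annotation, and the probe set with the highest mean stood for each of 14133 genes. Genes whose mean over the units exceeded the median of all probe sets were tested.

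Animal means were fitted with limma 3.58.1 (R 4.3.3), with animal as a random block (consensus correlation -0.237), eBayes and Benjamini-Hochberg adjustment over all genes; a call needs adjusted p under 0.05 and a log2 change of at least 1. After removal of area means, arrays of 1 animal correlated with a median of 0.208 (17 pairs), those of different animals with -0.0321 (79 pairs). In simulated data 99% of 200 genes changed by 1.5 were recovered, with 2 false calls. The simulation drew normal noise independently per gene, with a positive correlation within animals, unlike the fitted -0.237. It held no outlying array, batch or shift in poly-A controls, so it cannot show how those affect the calls. No detection calls were used, so whether a level under 4.80, the median probe set, differs from background was not tested. The number of animals limits the precision.

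Members and the 30 lists were chosen with earlier results of these data known. Named genes are the 3 markers, the 10 largest rises and falls called with 1 sign in all shared animals, up to 4 called members per list, the 2 largest of an uncalled list, and up to 5 layer test genes per direction; others are marked. Figures were drawn with matplotlib. Sequences and coordinates were not analysed here.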

Additional observations from a re-analysis of the deposited data

Results flagged for a closer look

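Among 74 groups of animal means examined for the named genes in layer 3, 4 held an animal far from the rest of its group; chance alone gives this in about 1 of 20 groups. RFTN2 was at 7.80 in the visual layer 3 of male CR5C1, against 8.78 to 9.05 in the other visual animals. CDH11 was at 8.40 in the prefrontal layer 3 of male CR5C1, against 8.64 to 8.66 in the others. Female 98C096, whose visual value rests on the V2 array that stood apart, was low for HRH1 (6.06, next 6.87) and for RASGRP1 (5.19, next 6.77).

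The prefrontal minus visual difference itself differed between layer 3 and the mean of layers 2, 5 and 6 for 11 genes by limma. It was larger in layer 3 by 3.01 for TMEM200A, 2.41 for MCOLN3, 2.33 for ADAMTS3, 1.70 for SSTR1, 1.63 for PPEF1, 1.29 for SCN7A, 1.25 for HRH1 and 1.17 for NAT8. It was more negative in layer 3 by -2.77 for MET, -1.65 for BHLHE22 and -1.40 for RERG.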

How the results depend on the processing

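No named gene reversed its direction in any alternative. The 102 calls became 117 with no replicate block, 10 with animal as a fixed replicate block, 6 with the poly-A covariate, 62 with the mean of all probe sets of a gene and 172 at adjusted p alone; leaving out each animal gave 27 to 142. The remaining alternatives (area means, filters, scalings, probe set choice, sex, each area left out) gave 83 to 138. Without the V2 array of female 98C096, an alternative chosen after seeing the data, 128 were called, 83 higher and 45 lower, against 80 and 22; without V2 the split was 76 and 54, and without that animal 80 and 62. The 11 layer test calls became 32 with no replicate block, 0 with the fixed replicate block, 29, 14 and 7 against layer 2, 5 or 6 alone, 37 without the V2 arrays of female 98C096 (added later), and 0 to 42 with each animal left out. OFC against DLPFC gave 0 calls in every alternative, and V2 against MT 0, except 3 without male 018G (0 to 3 over the animals). The cause of these shifts was not tested.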

Other observations

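Some gene families that were not lists themselves had called members, and were chosen here after their values were seen. SCN1A, SCN8A and ADAMTS3 in them are also members of lists above. Of 7 tested genes of the sodium channel family, 3 were higher in prefrontal layer 3 and none lower, where 0.778% of all genes were higher: SCN7A, the sodium-sensing member (2.03 ± 0.20, limma adjusted p = 0.000518), SCN3B, an auxiliary subunit (1.62 ± 0.22, 0.00456), and SCN3A, a pore subunit prominent in immature neurons (1.31 ± 0.25, 0.025). The members not called had changes of 0.50 (SCN2A), -0.01 (SCN4A), -0.04 (SCN8A) and -0.67 (SCN1A). The visual mean of SCN7A (4.06) lay below the filter level, so it was tested through its prefrontal level. Of 13 ADAMTS metalloproteases, ADAMTS3 and ADAMTS8 (1.47 ± 0.23) were higher and ADAMTS4 (-1.20 ± 0.23), which cleaves aggrecan, was lower. Over all genes tested, 0.778% were higher and 0.214% lower. A link of ADAMTS4 to ACAN or to myelin content was not tested.

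Relatives also went opposite ways, where 0.778% of all genes tested were higher and 0.214% lower. Of 6 anoctamins, ANO3 was higher (1.17 ± 0.15) and ANO5 lower (-2.10 ± 0.32), and of 7 kallikreins, KLK5 was higher (1.07 ± 0.19) and KLK6, a protease found in oligodendrocytes, lower (-1.30 ± 0.27). SSTR1 was the called gene of 5 somatostatin receptors. FGF9, a growth factor, was the called gene of 11 tested genes with an FGF symbol (2.01-fold lower, limma adjusted p = 0.0114).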
